A study of Mus musculus with 16 samples.

Results

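Astrocyte-tagged ribosomes were precipitated from the striatum of 4 mice that expressed the calcium pump hPMCA2w/b, and the RNA of each precipitate (IP) was compared with the RNA of the whole lysate (input) of the same mouse. These 4 IP and 4 input libraries, of mice Y223, Y225, Y259 and Y295, are 8 of the 16 libraries of the study and were taken by their treatment label and paired by the mouse number. All 8 mice of the study were of the C57BL/6N strain and carried a tagged ribosomal protein, Rpl22-HA, in striatal astrocytes. In 4 mice astrocytes also expressed hPMCA2w/b, and in the other 4, the control mice, an unnamed control protein. The animals' age and sex, the promoter that drove the proteins and how they were delivered are not given in the labels used here, and each mouse gave 1 input and 1 IP.

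In this method (RiboTag) an epitope on a ribosomal protein lets the ribosomes of 1 cell type be pulled out of a mixed tissue together with the messenger RNA they are translating. A transcript higher in IP than in input makes up more of the ribosome-bound RNA of the tagged cells than of the RNA of the tissue. Astrocytes clear glutamate and potassium from around synapses, couple to each other through gap junctions, and raise their internal calcium when transmitters reach them. The pump hPMCA2w/b is a variant of a human plasma membrane calcium ATPase that exports calcium from the cell, and such pumps are used to reduce calcium signals inside cells.

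Levels are given in log2 CPM, the log2 of a gene's reads scaled to a common library size. The reads, which the deposited values give back, came to 32.3 to 40.9 M per input and 48.1 to 55.1 M per IP. Of these reads the top 10 genes took 3.55% to 3.72% in input and 7.59% to 8.98% in IP. The authors' scaling factors lay between 1.106 and 1.122 for input and between 0.891 and 0.911 for IP. The IP of mouse Y295 stood apart from the other 3: the chi-square per degree of freedom of its reads against theirs was 80.5 to 99.3, against 8.52 to 23.1 among those 3. Among the IP libraries of control mice it ran from 12.3 to 77.3. The 4 inputs of hPMCA2w/b mice differed from one another by 4.57 to 13.6 on this measure, so no pair of libraries was the same library deposited again. The genes in which Y295 departed are described together further on, and named genes whose fitted ratio moves by over 0.3 without Y295 carry both values.

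Of 16345 genes tested (limma on the paired log2 CPM, adjusted p under 0.05), 6197 (37.9%) were higher in IP and 6536 (40.0%) were lower, so a call in itself says little about a gene. Sizes are therefore given throughout, as log2 ratios of IP to input with the standard error of the fit over 4 mice. A rise of 2-fold or more was called for 2701 genes and a fall of 2-fold or more for 2773. Large changes were mostly falls: 154 genes rose and 375 fell by 8-fold or more, and 6 rose and 158 fell by 16-fold or more. The 4 mice gave the same sign for 12406 of the 12733 called genes, and the median SD of a gene's 4 ratios was 0.17. When libraries were scaled by total reads only, the median ratio moved from -0.04 to -0.35 and the calls became 4331 higher and 8957 lower, so that 32.6% of calls were higher in place of 48.7%. Genes and lists whose ratio lies less than 0.31 above 0, the size of that shift, have no direction that holds under both scalings. In bulk RNA, fewer cells of a type and less RNA per cell cannot be told apart.

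Genes of astrocyte membranes and astrocyte identity led the rises. The strongest among well expressed genes was Atp1b2 (chromosome 11, 69599728 to 69605978, GRCm38.p6), the glial beta subunit of the sodium-potassium ATPase. It lay at 5.40, 5.26, 5.20 and 4.94 log2 CPM in the inputs of Y223, Y225, Y259 and Y295 and at 10.03, 9.87, 9.84 and 9.47 in their IP libraries, a rise of 4.60 ± 0.05 or 24.2-fold (adjusted p = 1.82e-09). Slc1a2 (chromosome 2, 102658239 to 102790784), the main glutamate transporter of astrocytes, lay at 11.03, 11.004, 10.89 and 10.83 log2 CPM in input and at 15.10, 15.09, 14.82 and 14.73 in IP. No IP value came near an input value, and the fitted rise was 4.00 ± 0.11. Sox9 (chromosome 11, 112782210 to 112787757), a transcription factor that marks adult astrocytes, lay at 4.27, 4.22, 4.19 and 3.96 in input and at 8.21, 8.21, 8.20 and 7.94 in IP. Its rise was 3.98 ± 0.05 (adjusted p = 2.33e-09), and its 4 ratios spanned 3.94 to 4.01.

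The other genes among the 12 largest rises were the glypican Gpc4, which helps synapses mature (3.97 ± 0.09), the inward rectifier potassium channel Kcnj10 (3.96 ± 0.05), the hedgehog effector Gli2 (3.88 ± 0.12), the transcription factors Tead1 (3.87 ± 0.06), Tfcp2l1 (3.85 ± 0.07) and Rorb (3.75 ± 0.06), Mcc (3.83 ± 0.06), the growth factor binding protein Igfbp5 (3.83 ± 0.08) and 5930403L14Rik, a gene of unnamed function (3.85 ± 0.11). Kcnj10 lay at 6.20, 6.12, 6.26 and 5.99 log2 CPM in input and at 10.16, 10.01, 10.26 and 9.997 in IP, and its 4 ratios ran from 3.89 to 4.004.

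**Figure D1:**
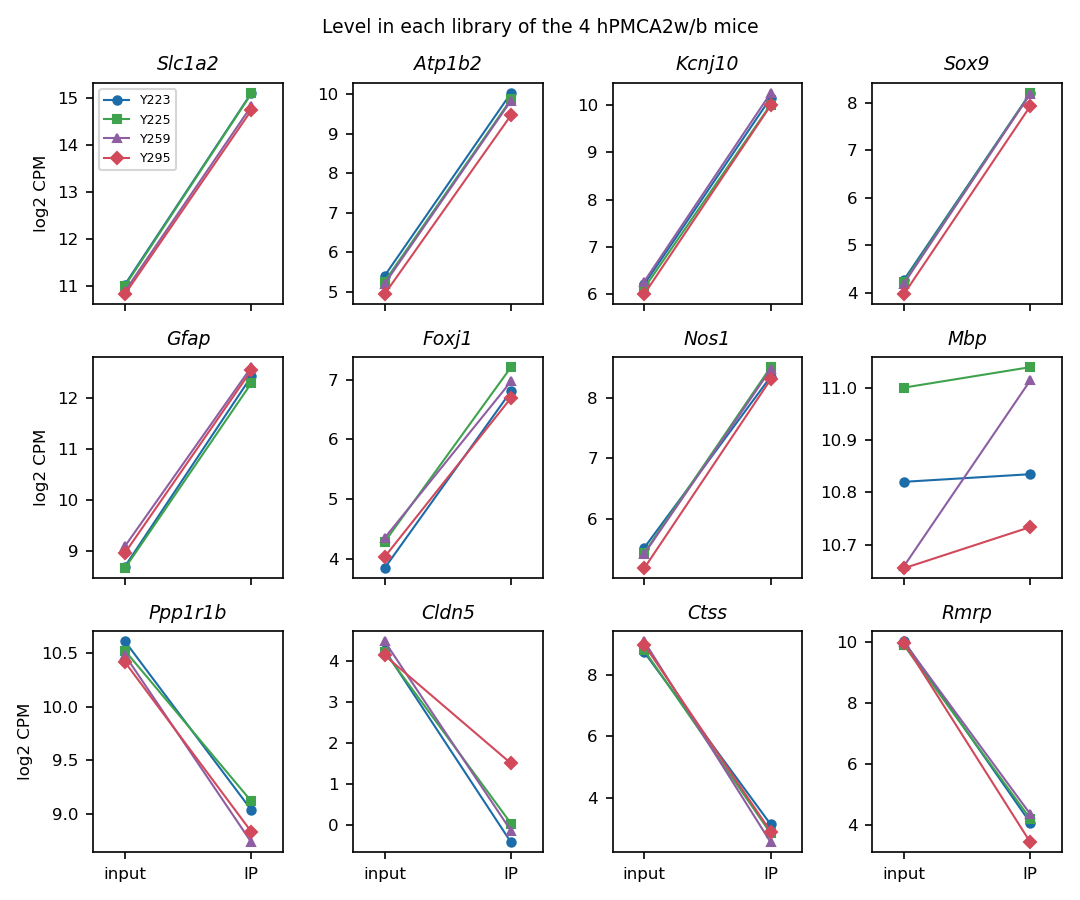
Level (log2 CPM, each panel with its own range) of 12 genes in input and IP, with 1 line per hPMCA2w/b mouse. The astrocyte genes Slc1a2, Atp1b2, Kcnj10, Sox9 and Gfap rise steeply in all 4 mice, the myelin gene Mbp moves by 0.01 to 0.36, and Ctss and Rmrp fall steeply in all 4.

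All 55 astrocyte markers of the list were tested and all 55 were higher in IP, 54 of them by 2-fold or more, with a median of 2.90 against -0.04 over all genes tested. The list's median ratio was 2.91, 2.92, 2.90 and 2.72 in Y223, Y225, Y259 and Y295, so Y295 was lowest and the other 3 lay within 0.02 of each other. Summed over the list, astrocyte markers took 10562 to 10951 CPM of input and 89677 to 104238 of IP. Gfap, the intermediate filament raised in reactive astrocytes, rose by 3.61 ± 0.07. The glutamate transporter Slc1a3 rose by 2.999 ± 0.07, the water channel Aqp4 by 3.12 ± 0.06 and the gap junction protein Gja1 by 3.04 ± 0.05. The smallest rise was that of Id4, an inhibitor of neuronal differentiation that other neural cells also express, at 0.999 ± 0.08. Crym, a thyroid hormone binding protein that marks striatal astrocytes, rose by 2.29 ± 0.05, from 6.87 to 7.09 log2 CPM in input to 9.17 to 9.43 in IP.

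Rpl22, the gene of the tagged protein, was higher in IP by 1.39 ± 0.06, at 6.59 to 6.79 log2 CPM in input and 8.01 to 8.22 in IP. Its close relative Rpl22l1 fell by 2.03 ± 0.08. How many of the Rpl22 reads come from the introduced copy was not tested. The mouse gene of the introduced pump, Atp2b2, fell by 0.55 ± 0.10, and it lay at 10.34 to 10.49 log2 CPM in input and 9.70 to 10.14 in IP. Reads of the human pump sequence may or may not be among those of Atp2b2, which was not tested.

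Microglial RNA was depleted more than that of any other cell type of the lists by median (-4.30). Of 25 microglial markers 24 fell, each by 2-fold or more. The largest fall among well expressed genes was that of Ctss (chromosome 3, 95526786 to 95556405), a lysosomal protease of microglia, at 8.73, 8.80, 9.09 and 8.98 log2 CPM in input and 3.12, 2.83, 2.54 and 2.89 in IP. This is a fall by 6.05 on the log2 scale (SE 0.13), and 1360 reads remained over the 4 IP libraries against 80621 in the inputs. The complement subunits were at -5.94 (C1qb), -5.71 (C1qc) and -5.38 (C1qa), and Tyrobp, an immune adaptor, fell by 5.73. The 1 marker of the list that rose was Sall1, a transcription factor gene of microglia, by 1.16 ± 0.07, with all 4 ratios between 0.97 and 1.29.

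The leukocyte list gave similar values. Of 21 leukocyte markers tested, 19 fell and 1, the class II antigen gene H2-Ab1, rose by 0.46, with a list median of -3.66. Igj, which joins immunoglobulin chains, fell by 5.61 ± 0.17, and Lyz2, a lysozyme of myeloid cells, fell by 5.26 ± 0.19. Also among the 12 largest falls, but not in the leukocyte list, were the immunoglobulin receptor Fcgr4 (-5.66 ± 0.22), Fcer1g (-4.99) and Emr1, a macrophage surface protein (-4.98 ± 0.11). The receptor subunit Fcer1g is in the microglial list. Cd74, the invariant chain, was at -0.15 and did not pass the test.

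Vessel and meningeal genes were split. Of 20 endothelial markers 15 fell and 4 rose (median -2.87). The tight junction gene Cldn5, which seals the blood-brain barrier, fell by 4.05 (SE 0.31), and the adhesion molecule Pecam1 was at -3.804. Without Y295 they were at -4.52 and -4.16. Those that rose were 3 transporters and the surface protein Bsg: Mfsd2a (2.14), Slc16a1 (1.33), Slc2a1 (0.76) and Bsg itself (0.48). Among 14 mural markers 8 fell and 4 rose, led by a fall of 4.53 in Vtn, an adhesive protein of pericytes, and a rise of 2.79 in the receptor Notch3. Among 13 leptomeningeal fibroblast markers 9 fell and 3 rose, with the matrix protein Dcn at -5.48 ± 0.18, from 2.99 to 3.17 log2 CPM in input to -2.58 to -2.25 in IP. The blood list could be tested on 1 gene only, Alas2, which fell by 1.18.

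**Figure D2:**
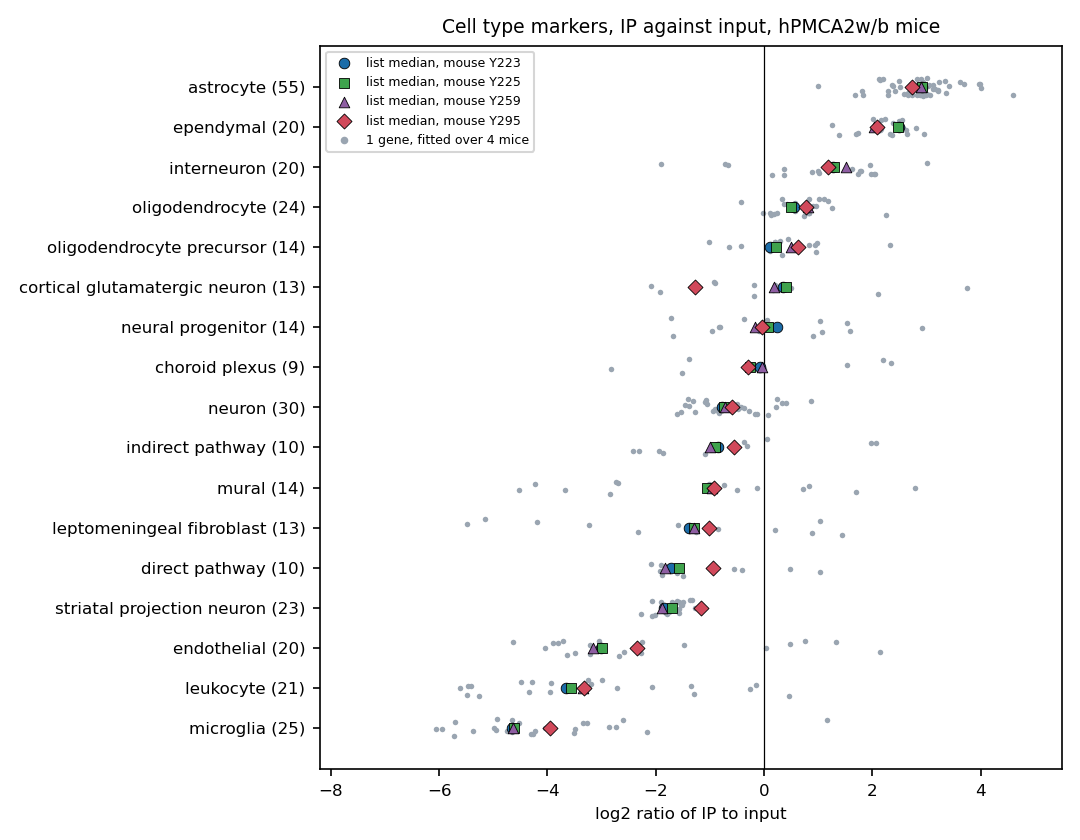
Log2 ratio of IP to input for the marker genes of 17 cell types (number of genes tested in brackets). Grey points are genes fitted over 4 mice, and large symbols are the list medians of single hPMCA2w/b mice. Astrocyte medians lie at 2.72 to 2.92 and microglial ones at -4.66 to -3.96, and the medians of Y295 depart from the other 3 for microglia, endothelial cells, striatal projection neurons and cortical glutamatergic neurons.

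Striatal projection neurons, the spiny cells that make up most neurons of the striatum, were depleted in every marker. All 23 fell, each by 2-fold or more, with a median of -1.62. Ppp1r1b, which integrates dopamine signals, lay at 10.61, 10.52, 10.48 and 10.42 log2 CPM in input and 9.04, 9.12, 8.74 and 8.84 in IP, a fall by 1.57 (SE 0.07), and the fractions did not overlap. Direct pathway genes fell for 7 of 10 and indirect pathway genes for 7 of 10, among them the dopamine receptor Drd1a (-1.93), the neuropeptide precursors Tac1 (-2.09) and Penk (-1.95), and the adenosine receptor Adora2a (-1.86, and -2.24 without Y295). The exceptions that rose were Eya1 (1.03) and Sfxn1 (0.48), Ttc12 (2.07) and Adk, the adenosine kinase that astrocytes use to clear adenosine (1.98). Of the general neuronal markers 22 of 30 were lower and 5 higher, with a median of -0.73, and the synaptic vesicle fusion protein Snap25 was at -1.07 ± 0.07.

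Several lists of other cells were higher in IP. All 20 ependymal markers tested rose, each by 2-fold or more, with a median of 2.28. These genes build and move the cilia that line the ventricles: Foxj1, the factor that switches on motile cilia, lay at 3.84, 4.28, 4.35 and 4.03 log2 CPM in input and 6.81, 7.21, 6.97 and 6.70 in IP (2.80 ± 0.07), and Hydin, a ciliary protein, rose by 2.95 ± 0.17. Of 20 interneuron markers 14 rose and 2 fell (median 1.27). Nos1, the neuronal nitric oxide synthase, lay at 5.53, 5.44, 5.42 and 5.19 in input and 8.35, 8.51, 8.47 and 8.31 in IP, a rise of 3.01 ± 0.06. The acetylcholine genes Chat (1.98 ± 0.06) and Slc18a3 (2.03) and the peptide gene Sst (2.05 ± 0.07) rose too, whereas Pvalb, the calcium buffer of fast-spiking interneurons, fell by 1.91 (SE 0.11) and Pthlh, a peptide hormone gene, was at -0.67.

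Of 24 oligodendrocyte markers 19 rose and 1, Hapln2, fell (median 0.65), but the myelin gene Mbp (0.12 ± 0.09, and -0.18 with total reads) did not pass the test. Myrf, the transcription factor that drives myelin genes, rose by 2.25 ± 0.06, more than any other marker of that list. Oligodendrocyte precursor genes rose for 7 of 14 and fell for 3, with the transcription factor Sox6 at 2.32 and the precursor marker Lhfpl3 at -1.01. The ratio of Lhfpl3 was -1.60, -1.53, -1.12 and 0.22 in Y223, Y225, Y259 and Y295, so its sign was turned in Y295, and it was at -1.42 without that mouse. Progenitor genes were divided (6 rose and 6 fell of 14), with the growth factor receptor Egfr at 2.91 and the mitotic gene Top2a at -1.69. Of 9 choroid plexus genes tested 3 rose and 3 fell, among them the thyroid hormone carrier Ttr at -2.83. Of 13 cortical glutamatergic markers 3 rose and 4 fell, with Rorb, which is also in the list of astrocyte transcription factors, at 3.75.

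Within the glutamate list, 9 of 21 genes rose and 9 fell. Glutamine synthetase, Glul, rose by 2.70, the dehydrogenase Glud1 by 2.15, the glutamine exporter Slc38a3 by 2.90 and the receptor subunit Grin2c by 2.93. The receptor subunit Gria2 fell by 1.297, and the lowest ratio of the list was -4.71, in another gene of the Slc38 family. Of 17 GABA genes 10 rose and 7 fell. The astrocytic GABA transporter Slc6a11 lay at 6.02 to 6.29 log2 CPM in input and 8.95 to 9.06 in IP (2.82 ± 0.06), and Maob, which breaks down amines, rose by 2.95, while the GABA-synthesising enzyme Gad1 and the vesicular transporter Slc32a1 fell by 0.84 and 1.28. The transporter Slc6a13, found in meninges, fell by 4.19. Of 28 genes of potassium, water and bicarbonate handling and gap junctions 20 rose and 5 fell (median 1.62).

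Of 53 genes of calcium release, entry and extrusion 18 rose and 29 fell, with a median of -0.21. The 3 inositol trisphosphate receptors, which release calcium from internal stores, did not share a sign. Itpr2, the form that dominates in astrocytes, lay at 5.40, 5.33, 5.41 and 5.33 log2 CPM in input and 7.69, 7.73, 7.75 and 7.82 in IP, a rise of 2.38 ± 0.05. Itpr1 fell by 1.42 (SE 0.07), Itpr3 by 2.57 (SE 0.17) and the release channel Ryr1 by 1.95. The phospholipases Plcd4 and Plcb3, which feed this pathway, rose by 3.07 ± 0.07 and 2.71, and the calcium-binding protein S100a1 rose by 2.50. Among the mouse calcium pumps of the plasma membrane, named after their values were seen, Atp2b4 rose by 0.82 ± 0.06 while Atp2b1 and Atp2b3 fell by 1.35 (SE 0.10) and 0.77 (SE 0.11).

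Of 50 receptor genes through which astrocytes can be addressed 33 rose and 14 fell (median 1.13). Among noradrenaline receptors Adra1a rose by 1.63 and Adra2a by 1.35. The Wnt receptor Fzd10 (3.37), the polarity cadherin Celsr1 (3.33) and the endothelin receptor Ednra (3.20 ± 0.12) rose most. The purine receptor P2ry6, found on microglia, fell by 2.85.

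Transcription factors of the astrocyte lineage formed the list with the highest median among the function lists, 2.12, and 43 of 45 rose while 1 fell. Nfia, which starts astrocyte formation, rose by 3.35, and Sox2 by 2.30. In hedgehog signalling 12 of 15 genes rose, with the transducer Smo at 2.36, the receptor Ptch1 at 1.57 and the co-receptor Gas1 at 2.89, and the ligand Shh fell by 0.39. The median of this list was lower in Y295 (1.10) than in the other 3 mice (1.59 to 1.95). In Notch signalling 13 of 22 rose and 6 fell. The receptors Notch1, Notch2 and Notch3 rose by 2.94, 2.73 and 2.79, and the remaining receptor of the list is not reported here. The ligands Dll4, Jag2, Dll1 and Jag1 fell by 1.83, 0.75, 0.65 and 0.57, with Dll1 and Jag1 named after their values were seen. The lowest ratio of the list was -2.62, in a gene other than these.

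Of 40 genes of synapse-acting factors and phagocytosis 30 rose and 6 fell (median 1.83). Chrdl1, which promotes synapse maturation, rose by 3.42, the thrombospondins Thbs2 and Thbs4 by 2.46 and 3.34, and Tgfb1, made by microglia, fell by 2.15. In the protocadherin clusters, whose genes give neurons and glia distinct surface codes, 18 of 58 rose and 27 fell. Pcdhgc3 stood out with 3.54 ± 0.05, at 5.85 to 6.03 log2 CPM in input and 9.30 to 9.64 in IP, against 1.74 for Pcdhgc4, the next highest. Reads of these genes, which share their last exons, may be divided between members in ways not known here.

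Metabolic genes of astrocytes rose in most lists. Fatty acid oxidation had 32 of 34 genes higher and 1 lower (median 1.82), with Cpt1a, the gate of fatty acids into mitochondria, at 4.91 to 5.18 log2 CPM in input and 7.97 to 8.05 in IP (2.96 ± 0.06), and Acsm5 at 4.27 ± 0.30 from very low input levels of -3.798 to -2.61. Cholesterol synthesis had 24 of 26 higher (median 1.38), with the HMG-CoA synthase gene Hmgcs1 at 2.09. Lipid transport had 23 of 27 higher, with Apoe at 2.71 and the receptor Lrp4 at 3.27. Of 35 genes of glycolysis and glycogen use 29 rose, with the kinase Pdk4 at 3.14 and the brain glycogen phosphorylase Pygb at 2.80. Serine and one-carbon synthesis had 16 of 21 higher (median 1.88), from Phgdh at 2.48 to Aldh1l1 at 3.34, and glutathione and antioxidant genes 24 of 29 (median 1.61), with Gstm1 at 2.99.

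**Figure D3:**
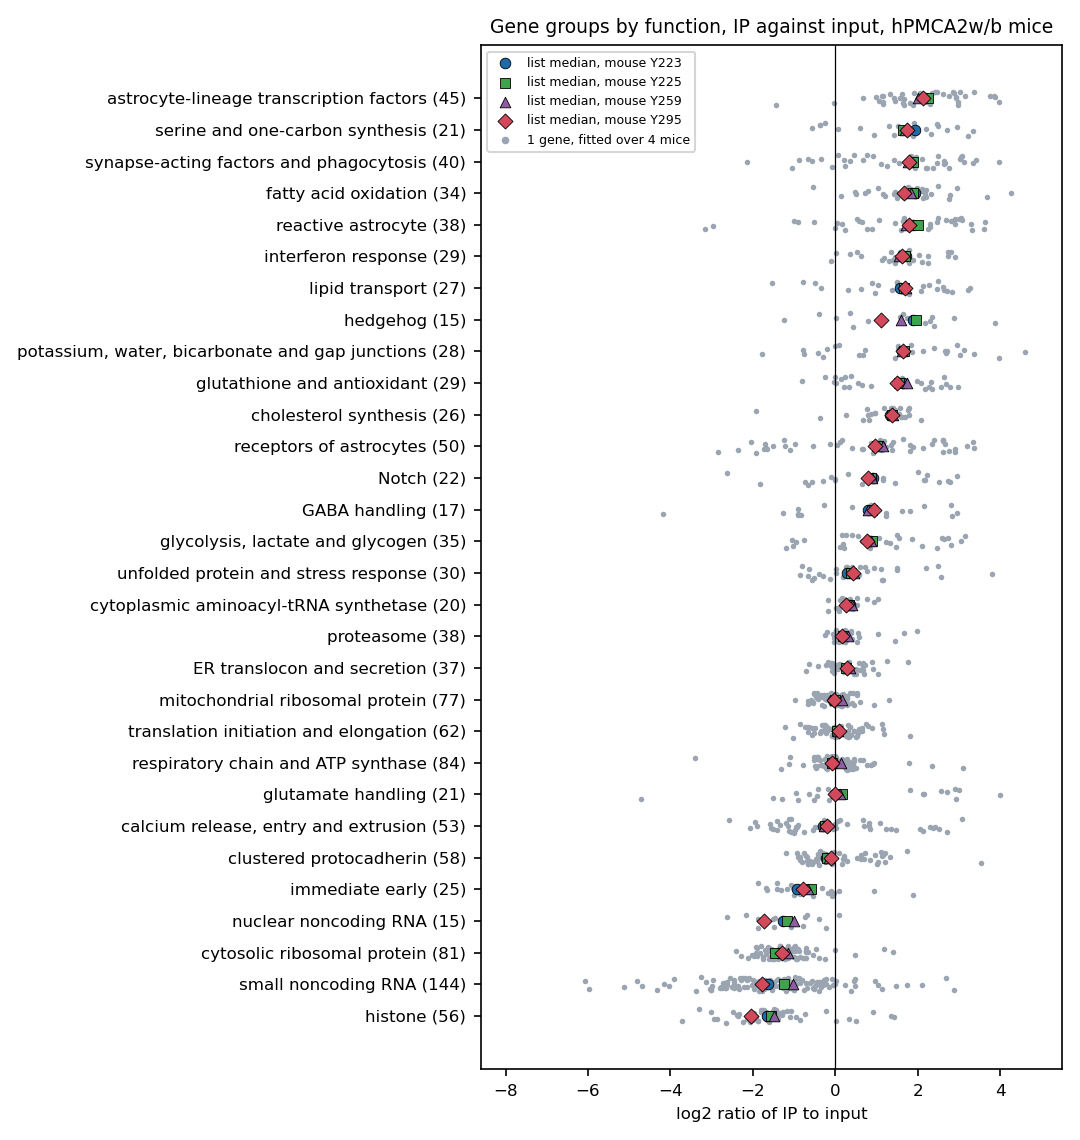
Log2 ratio of IP to input for 30 function lists (number of genes tested in brackets), drawn as for the cell types. Medians run from 2.12 for astrocyte transcription factors to -1.69 for histones, and those between about 0 and 0.3 lie within the shift that scaling by total reads brings.

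Genes of reactive astrocytes and of the interferon response were mostly higher in IP. Of 38 genes of reactive astrocytes 28 rose and 5 fell (median 1.82), with Vim at 3.07, the protease inhibitor Serpina3n at 2.99, the pentraxin Ptx3 at 3.63 ± 0.20 and Lcn2 at 2.92 (2.60 without Y295). Those that fell most were Srgn (-3.17) and Cd14 (-2.97), genes of immune cells. Of 29 interferon response genes 27 rose and 0 fell (median 1.68). Ifit3, an antiviral protein, lay at 6.22, 6.32, 6.79 and 6.995 log2 CPM in input and 9.07, 9.17, 9.50 and 9.81 in IP, a rise of 2.81 ± 0.05, and the GTPase Gbp2 at 6.82, 6.82, 7.57 and 7.70 in input and 9.77, 9.73, 10.29 and 10.72 in IP (2.90 ± 0.07). Levels of both were higher in Y259 and Y295 than in Y223 and Y225 in either fraction, while the 4 ratios differed little.

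Interferon and ciliary genes are each known for a shared promoter element, and cholesterol genes were searched for a more general box. Promoter letters are shown for members of these lists that rose together. The RefSeq promoter table of GRCm38.p6 (250 bases before to 50 after a gene's start) held 12709 of the tested genes. The core repeat of the interferon element, GAAA followed after any 2 bases by GAAA, was found on either strand in 3.76% of them and in 11 of 23 interferon genes (47.8%). GTTGCC, a piece of the X-box that ciliary regulators read, was in 14.99% of all and 8 of 16 ependymal genes (50%). CCAAT, a box used by many promoters, was in 42.3% of all and 17 of 18 cholesterol genes (94.4%). It was also in 42 of 50 histone genes (84%), a list that fell in IP. A match is a description of letters and not a site, and the genes shown were picked among those with a match before the start. Each line gives 80 bases 5′ to 3′ on the gene's strand, with matches in capitals, including those that read as the motif on the opposite strand.
Ifit1, chr19:34640759-34640838 (+ strand): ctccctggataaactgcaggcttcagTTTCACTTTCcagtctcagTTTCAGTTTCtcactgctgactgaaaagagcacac
Ifit3, chr19:34583355-34583434 (+ strand): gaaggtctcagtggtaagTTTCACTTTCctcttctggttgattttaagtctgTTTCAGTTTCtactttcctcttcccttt
Isg15, chr4:156200846-156200925 (- strand): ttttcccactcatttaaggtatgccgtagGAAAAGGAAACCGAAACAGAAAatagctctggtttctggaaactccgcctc
Gbp2, chr3:142620569-142620648 (+ strand): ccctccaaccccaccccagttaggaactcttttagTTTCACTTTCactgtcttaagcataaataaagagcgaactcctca
Tekt1, chr11:72361883-72361962 (- strand): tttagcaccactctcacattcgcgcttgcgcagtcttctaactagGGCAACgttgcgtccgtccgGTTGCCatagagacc
Dynlrb2, chr8:116504927-116505006 (+ strand): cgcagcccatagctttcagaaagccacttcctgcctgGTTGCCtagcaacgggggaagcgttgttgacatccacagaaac
Ccdc153, chr9:44240488-44240567 (+ strand): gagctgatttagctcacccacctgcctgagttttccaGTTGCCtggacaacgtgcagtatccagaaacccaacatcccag
Idi1, chr13:8885526-8885605 (+ strand): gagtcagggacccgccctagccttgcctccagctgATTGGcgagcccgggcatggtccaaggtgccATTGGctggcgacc
Hmgcs1, chr13:119690268-119690347 (+ strand): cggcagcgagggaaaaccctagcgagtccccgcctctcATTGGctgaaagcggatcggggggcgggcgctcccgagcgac
Cyp51, chr5:4104698-4104777 (- strand): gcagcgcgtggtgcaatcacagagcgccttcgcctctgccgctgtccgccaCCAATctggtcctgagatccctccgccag

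Ifit1 and Ifit3 each held the interferon repeat at 2 places in the window and Isg15 at 3 that overlap, while Gbp2 held 1. In the data Ifit1 rose by 1.35 and Isg15 by 1.44, less than Ifit3 (2.81) and Gbp2 (2.90). Tekt1, a filament protein of cilia, rose by 2.62, Dynlrb2, a dynein light chain, by 2.16 and Ccdc153 by 2.37. Idi1 and Cyp51, enzymes of cholesterol synthesis, rose by 1.78 and 1.62, beside Hmgcs1 at 2.09.

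Noncoding RNAs of the nucleus and small noncoding RNAs were mostly lower in IP. All 13 called members of the 15 nuclear noncoding RNAs fell (median -1.19). Malat1 lay at 13.13, 13.08, 13.54 and 13.51 log2 CPM in input and 11.81, 11.79, 12.29 and 11.43 in IP (-1.49 ± 0.15), and Rian fell by 2.64 ± 0.08. Of 823 small noncoding RNA genes 144 were tested, and of these 97 fell and 5 rose (median -1.50). Rmrp, an RNA of a nucleolar ribonuclease, lay at 10.04, 9.91, 10.01 and 9.99 in input and 4.06, 4.19, 4.35 and 3.42 in IP (-5.98 ± 0.13), and Rpph1, the RNA of ribonuclease P, fell by 5.14 ± 0.09. The count of these RNAs depends on the filter: 179 fell with no filter on low genes and 18 with at least 50 reads.

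Of 56 histone genes 49 fell (median -1.69), led by Hist1h3c at -3.72 ± 0.22, while Hist1h2bc rose by 1.42 ± 0.05. Replication-dependent histone messages mostly lack a poly(A) tail, and whether this bears on their fall was not tested. Cytosolic ribosomal protein genes fell for 77 of 81 (median -1.35), with Rps12 at 7.56, 7.65, 7.26 and 7.29 log2 CPM in input and 5.18, 4.89, 5.02 and 4.99 in IP (-2.42 ± 0.08). The 3 that rose were Rpl22, Rps27l (1.19 ± 0.08) and Rps4l (0.49). Mitochondrial ribosomal proteins (22 rose, 21 fell, of 77), the respiratory chain (30 and 30 of 84) and translation factors (24 and 20 of 62) had medians within 0.03 of 0. The lists of the ER translocon, the proteasome and the aminoacyl-tRNA synthetases had medians of 0.22 to 0.33 that scaling by total reads brings to about 0 or below. Genes of the unfolded protein and wider stress response rose for 19 of 30 and fell for 7, with the factor Creb3l1 at 3.79 ± 0.20. Immediate early genes fell for 17 of 25 (median -0.86), Egr1 by 1.16 and Homer1 by 1.69, but Jun and Fos rose by 1.88 ± 0.06 and 0.95 ± 0.16.

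Mouse Y295 differed from the other 3 in a set of genes that crossed cell types. Among 9652 tested genes with a mean of at least 4 log2 CPM in 1 fraction, 137 had a Y295 ratio more than 1 above all 3 other mice, and 1 had a ratio more than 1 below. The same count was 0 above and 1 below for Y223, 0 and 0 for Y225 and 0 and 0 for Y259, and in the 4 control mice at most 1 above and 2 below of 9620 genes. Over the 137 genes the median input level was 6.83, 6.82, 6.90 and 6.80 log2 CPM in Y223, Y225, Y259 and Y295, and the median IP level was 5.37, 5.42, 5.42 and 6.79. The inputs were alike, and the IP of Y295 was high. These genes were picked by this gap, so no test is given.

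The widest spreads were those of the microglial genes Cx3cr1 and Tmem119. Cx3cr1, the fractalkine receptor, lay at 2.24, 2.22, 2.36 and 5.19 log2 CPM in the IP libraries of Y223, Y225, Y259 and Y295 over inputs of 6.89, 6.95, 7.26 and 7.10. Tmem119 lay at 0.85, 0.55, 0.80 and 3.82 over inputs of 5.68, 5.67, 5.96 and 5.90. Fitted without Y295, they were at -4.76 in place of -4.05 (Cx3cr1) and -5.04 in place of -4.30 (Tmem119). The microglial list as a whole was less depleted in Y295, with a median ratio of -3.96 against -4.66 to -4.61 and a summed IP level of 251 CPM against 175 to 183. Of its 25 markers 15 had their highest ratio in Y295 and 2 their lowest. Some moved little: the ratio of Ctss was -6.08 in Y295 against -6.55 to -5.61 in the others, and that of C1qb -6.01 against -6.35 to -5.50. Of the 24 microglial markers at this level 4 were in the set of 137, as were 6 of 23 markers of striatal projection neurons, among them Pde10a with ratios of -1.60, -1.45, -1.67 and -0.38, while Ppp1r1b was at -1.58 against -1.74 to -1.40. Cldn5 of endothelial cells was in the set with -2.65 against -4.71 to -4.21, as was the lipase gene Lpl with 0.24 against -2.20 to -2.05 (fitted ratio -1.53, and -2.12 without Y295). The others among the 8 widest spreads were Laptm5 (-3.52, and -4.14 without Y295), 6330403A02Rik (-1.42 and -2.02), Slco2b1 (-3.13 and -3.72), Fcgr1 (-3.99 and -4.36) and Slc17a7.

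The set held 118 genes that are in no list. Its genes had a median span of 44.7 kb against 29.2 kb over the 9605 genes with a RefSeq span. Of the 137, 120 were lower in IP over all 4 mice and 17 made no call, and without Y295 136 were lower. Cortical glutamatergic markers went the other way. Their median ratio was 0.35, 0.40, 0.19 and -1.28 in Y223, Y225, Y259 and Y295, and Slc17a7, the vesicular glutamate transporter of cortical neurons, lay at 6.26, 5.08, 6.38 and 4.17 log2 CPM in IP over inputs of 5.95, 4.51, 6.22 and 5.95. Its fitted ratio was -0.19, which did not pass the test, and 0.34 without Y295, which did. Without Y295 the median of this list was 0.34 in place of 0.17, that of striatal projection neurons -1.82 in place of -1.62, that of microglia -4.70 in place of -4.30 and that of endothelial genes -3.001 in place of -2.87. Of the 13 cortical markers 8 rose without Y295, in place of 3, while the counts of falls in these 4 lists were the same. The cause of the difference was not tested.

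**Figure D4:**
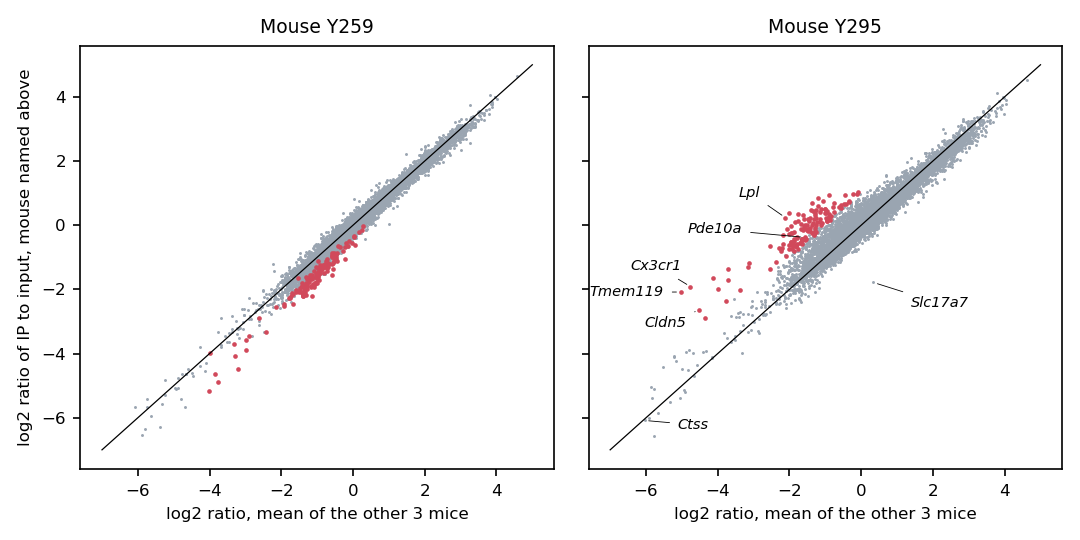
Log2 ratio of IP to input in mouse Y259 (left) and Y295 (right) against the mean of the other 3 hPMCA2w/b mice, for 9652 genes with a mean of at least 4 log2 CPM in 1 fraction, with the line of equality. The 137 genes whose Y295 ratio exceeds all 3 others by more than 1 are red in both panels, and the mean on the left includes Y295.

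Whether enrichment differed from that in control mice was tested as the difference of IP over input between treatments, with the mouse as a block in all 16 libraries. Of 16673 genes 278 (1.67%) had a higher ratio in hPMCA2w/b mice and 188 (1.13%) a lower one. For most astrocyte markers no difference was called: of 55, 2 passed, with Atp1b2 higher by 0.54 ± 0.11 (adjusted p = 0.0323) and Kcnj10 by 0.37 ± 0.09 (adjusted p = 0.0489), and Slc1a2 was at 0.09 ± 0.17. With 1 mouse left out, 0 to 6 astrocyte markers passed as higher, with 0 without Y221, Y223, Y225 or Y259. Without Y259 1 marker passed as lower, and without Y219 the median difference of the list was -0.02 in place of 0.06. The median of the list was 2.90 in hPMCA2w/b and 2.80 in control mice. Rpl22 differed the other way: its ratios were 1.43, 1.24, 1.49 and 1.42 in hPMCA2w/b mice and 1.98, 2.27, 2.43 and 2.14 in control mice, a difference of -0.81 ± 0.10. The part of this difference in the other results was not tested.

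Some genes of immune cells were depleted less in hPMCA2w/b than in control mice. Of 25 microglial markers 8 passed and all 8 were higher, and 4 of 21 leukocyte markers. The IP of Y295, where microglial genes were less depleted, is 1 of the 4 on the hPMCA2w/b side. Without Y295 the median difference of the microglial list was 0.55 in place of 0.76, with 12 markers higher and P2ry12 lower, and that of the leukocyte list was 0.63 in place of 0.875, with 3 higher. With each other mouse left out, 4 to 6 microglial markers were higher and 0 to 2 leukocyte markers, with 0 without Y223, Y225 or Y259. Olfml3, a secreted protein of microglia, had ratios of -2.27, -2.44, -2.26 and -1.70 against -4.32, -3.83, -3.87 and -4.27 in control mice (difference 1.90 ± 0.17, adjusted p = 0.000352). This ranking covers called genes with a mean of at least 4 log2 CPM in 1 group and ratios that did not overlap between treatments. Next in it were the myosin Myo1f (1.62), 9430020K01Rik (1.44), A230057D06Rik (1.42) and the cytokine receptor Csf3r (1.41). Then came the microglial receptor Fcrls (1.37), A330023F24Rik (1.33) and Ly6c1 of vessels and leukocytes (1.28). Nuclear noncoding RNAs were higher for 6 of 15, among them Malat1 (1.10 ± 0.21), Snhg11 (1.123) and Meg3 (1.03), and for 2 to 8 with 1 mouse left out. Both groups of RNA are depleted in IP, so a higher ratio here means a smaller depletion.

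Lower ratios were called for interneuron genes and for some general neuronal markers. Of 30 general neuronal markers 5 were lower and 1 was higher, against 1.13% and 1.67% over all genes tested. Of 20 interneuron markers 7 passed and all 7 were lower: Pvalb (-1.03), Pthlh (-0.95), the receptor gene Kit (-0.91), the choline transporter Slc5a7 (-0.68), Chat (-0.52), Nos1 (-0.47) and Lhx6 (-0.34). Chat stood at 1.81, 2.07, 2.02 and 2.01 against 2.50, 2.54, 2.49 and 2.46 in control mice, so the ranges did not overlap. Cxcl9, a chemokine induced by interferon, was lower in IP than in input in every hPMCA2w/b mouse (-1.23, -1.73, -1.83 and -1.54) and higher in every control mouse (0.65, 0.64, 1.04 and 0.10), a difference of -2.19 ± 0.18 (adjusted p = 0.000262). Vtn differed by -1.59 ± 0.15, Slc37a2, a sugar phosphate carrier, by -1.13, the membrane protein gene Pqlc3 by -0.87, the kinase gene Map3k14 by -0.86 and Il4ra, a receptor for an interleukin, by -0.82.

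The number of calls between treatments rested on single mice. Without Y223, Y225 and Y259 the counts of higher and lower genes were 51 and 29, 61 and 35, and 68 and 60, and without Y295 they were 449 and 391. Without the control mice Y219, Y221, Y222 and Y257 they were 147 and 82, 64 and 31, 159 and 132, and 131 and 93. Both libraries of control mouse Y257 carry that number in their titles and Y227 as source name, so they pair under either number. Without the mean-variance trend the counts were 37 and 29.

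**Figure D5:**
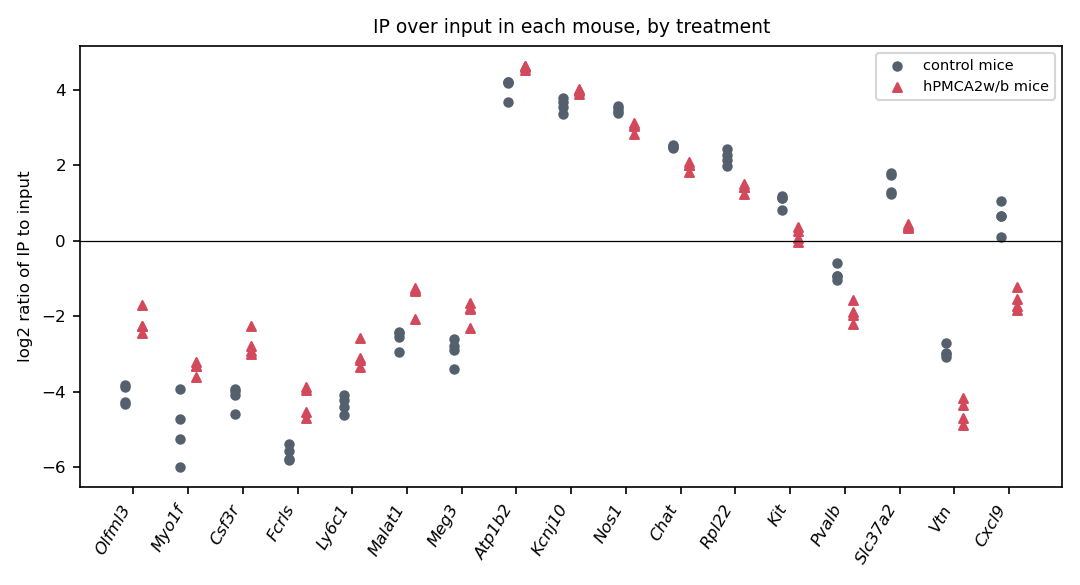
Log2 ratio of IP to input in each of 4 control mice (grey circles) and 4 hPMCA2w/b mice (red triangles) for 17 genes called in the difference between treatments. The ratios of the treatments do not overlap for any gene shown. For the genes named as the largest differences each way, this was a condition of the choice. The ratios of Cxcl9 have opposite signs, with -1.83 to -1.23 in hPMCA2w/b and 0.10 to 1.04 in control mice.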

How the data were processed

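The authors deposited log2 CPM of 20730 genes in 16 libraries, made with a stranded TruSeq kit after ribosomal RNA removal (RiboZero Gold) and sequenced on a HiSeq4000, per the labels' protocols. STAR, HTSeq, edgeR, limma and mm10 are named per the submitters' processing notes, and no source used here gives their versions or settings or says whether strand was used in counting. With a mean prior of 0.25, 100% of values gave whole reads within 0.001. Genes with at least 10 reads in 4 libraries and 15 reads in all were tested on the deposited log2 CPM with limma 3.58.1 in R 4.3.3 (lmFit, eBayes with a mean-variance trend), with the mouse as a block and Benjamini-Hochberg adjustment at 0.05. IP and input with the same mouse number came from 1 animal, and their deviations from the group means correlated in all 4 pairs (r 0.15 to 0.28). Whether the mice were littermates is not given. The difference between treatments was fitted over all 16 libraries. The script was tested on simulated data.

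The gene lists, the named genes and the set of libraries were chosen with earlier results of these data known. Named genes are the 12 largest rises and falls (mean of at least 4 log2 CPM), the first 4 and the 3 most changed each way of each list, the 8 widest spreads, the 8 largest differences each way between treatments with list members called there, and Rpl22, Rpl22l1, Atp2b2 and Crym. Outside this rule, Atp2b1, Atp2b3, Atp2b4, Bsg, Cd74, Cyp51, Dll1, Egr1, Id4, Jag1, Pde10a, Slc38a3 and Tekt1 were chosen after their values were seen. Some genes that the rule names are not reported here. Of the gene names 19546 matched a RefSeq symbol of GRCm38.p6, 1056 a synonym and 128 neither, and positions are those of RefSeq. The alternatives were no mouse block, total reads, a prior of 2, no filter, a filter of 50 reads, voom weights, no trend, and each mouse left out.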

Additional observations from a re-analysis of the deposited data

Results flagged for a closer look

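Among 228 groups of 4 ratios (of the genes and lists described above), 19 had 1 mouse whose gap to the nearest other mouse was a larger share of the range than Dixon's test at the 95% level allows. Chance would mark about 1 in 20 groups picked without regard to their spread. These groups share the same mice, and some genes were named for their wide spread or after their values were seen. That rate therefore does not apply to them. The mouse was Y295 in 16 of the 19 groups. The ratio of Y295 was highest for 6330403A02Rik at 0.39 against -2.22 to -1.89, Atp2b1 at -0.99 against -1.49 to -1.43, Cx3cr1 at -1.91 against -4.90 to -4.66, Drd1a at -1.29 against -2.18 to -2.08, Egr1 at -1.01 against -1.23 to -1.19 and Lpl at 0.24 against -2.20 to -2.05 in the other 3 mice. It was also highest for Pde10a at -0.38 against -1.67 to -1.45, Slc16a1 at 1.54 against 1.24 to 1.28, Slco2b1 at -1.36 against -3.83 to -3.59, Tekt1 at 2.81 against 2.54 to 2.58 and Tmem119 at -2.08 against -5.16 to -4.82. The ratio of Y295 was lowest for Apoe at 2.52 against 2.75 to 2.79 and Malat1 at -2.07 against -1.32 to -1.25. The mouse apart was Y259 for S100a1 at 2.68 against 2.43 to 2.47. Among list medians Y295 stood apart for astrocyte genes at 2.72 against 2.90 to 2.92, microglia genes at -3.96 against -4.66 to -4.61 and cortical glutamatergic neuron genes at -1.28 against 0.19 to 0.40, and Y259 for respiratory chain and ATP synthase genes at 0.13 against -0.07 to -0.05 and proteasome genes at 0.30 against 0.17 to 0.18.

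For 35 of the genes described above the ratio of IP to input differed between treatments in the limma test of the difference itself (adjusted p under 0.05). Many of them were named because this test called them, so their number says nothing about the genes described. Over all 16673 genes tested, 278 (1.67%) were called higher and 188 (1.13%) lower. The ratio was higher in hPMCA2w/b than in control mice, on the log2 scale, for Olfml3 (1.90), Myo1f (1.62), 9430020K01Rik (1.44), A230057D06Rik (1.42), Csf3r (1.41), Fcrls (1.37), A330023F24Rik (1.33), Ly6c1 (1.28) and Alas2 (1.15). By smaller amounts it was higher for Snhg11 (1.123), Malat1 (1.10), Meg3 (1.03), Rmrp (0.997), 5930403L14Rik (0.77), Rian (0.57), Atp1b2 (0.54), S100a1 (0.49), C1qa (0.47) and Kcnj10 (0.37). The ratio was lower in hPMCA2w/b mice for Cxcl9 (-2.19), Vtn (-1.59), Slc37a2 (-1.13), Pvalb (-1.03), Pthlh (-0.95), Kit (-0.91), Pqlc3 (-0.87) and Map3k14 (-0.86). By smaller amounts it was lower for Il4ra (-0.82), Rpl22 (-0.81), Slc5a7 (-0.68), Gad1 (-0.60), Slc32a1 (-0.58), Chat (-0.52), Nos1 (-0.47) and Lhx6 (-0.34).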

How the results depend on the processing

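For IP against input the sign held over all alternatives run for 177 of the 181 genes described. With total reads Kit turned from 0.15 to -0.15, Map3k14 from 0.18 to -0.12 and Mbp from 0.12 to -0.18, and without Y295 Slc17a7 turned from -0.19 to 0.34. None of the 35 differences between treatments turned. Over all alternatives the count of calls of the 48 lists, in each list's main direction, stayed within 1.5 times in 519 comparisons and moved further in 9. The pairing by mouse changed no call of IP against input for a named gene: with no replicate block 6121 genes were higher and 6430 lower. For the difference between treatments, 162 genes were higher with no replicate block and 177 lower, 155 and 117 with no filter, and 37 and 29 with no mean-variance trend. Leaving out 1 mouse gave 51 to 449 higher and 29 to 391 lower, the low ends without Y223 and the high ends without Y295. Of the calls of the 35 genes named for that difference, 118 were lost over all alternatives, 80 of them with 1 mouse left out. With at least 50 reads, 0 choroid plexus genes were higher and 18 small noncoding RNAs were lower, and with no filter 3 blood genes and 179 small noncoding RNAs were lower, as other genes were then tested. With total reads, genes called higher numbered 5 for mitochondrial ribosomal proteins, 10 for the respiratory chain, 6 for the proteasome, 14 for translation factors and 5 for aminoacyl-tRNA synthetases, since each ratio drops. Levels of genes near 0 reads in IP, such as Dcn, rest on few reads, and 1 tested gene had 0 IP reads.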

Other observations

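Interferon and reactive genes differed between mice in both fractions. Summed over the 29 interferon response genes, the inputs held 2333, 2382, 3405 and 3548 CPM in Y223, Y225, Y259 and Y295 and the IP libraries 8057, 8257, 10391 and 11745. Genes of reactive astrocytes summed to 1683, 1661, 2235 and 2222 in input and 10379, 9939, 12347 and 13384 in IP. Mice Y259 and Y295 were thus higher than Y223 and Y225 in each fraction and for each list, and no test was made of this split, which was seen in the data.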
